A study of Arabidopsis thaliana with 6 samples.

Results

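The Casparian strip is a ring of lignin in the wall of the root endodermis that blocks free passage of solutes between soil and stele. CASP proteins form a scaffold in the endodermal plasma membrane beneath the strip, and dirigent proteins, which guide the coupling of monolignol radicals, act with peroxidases and laccases in the wall above it. The gene set described here was entered as 10 loci: CASP1 to CASP5, ESB1, a dirigent gene needed for an ordered strip, and the dirigent genes AT4G13580, AT2G39430, AT3G24020 and AT1G07730. Members were taken where a probe set of the array was annotated to that locus alone, which left 2 of the 10, AT4G13580 and AT2G39430, among 13286 genes with such a probe set. CASP1 to CASP5, ESB1 and AT3G24020 had no probe set named here, and the 1 probe set of AT1G07730 is shared with a second gene, so these 8 loci were not analysed here. Of 22746 probe sets, 8730 had no gene name in the annotation used. Any gene said below to lack a single-gene probe set may therefore still be on the array. The values below are therefore those of a pair of dirigent genes, and they say nothing of the CASP scaffold itself.

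The data came from 6 Affymetrix ATH1 arrays hybridised with RNA of entire Arabidopsis thaliana seedlings of the Columbia 0 ecotype, with no transgene or mutation named. In the treated group, seedlings 7 days old had received 5 µM of a dichlorophenoxy propanamide, an amide with an isobutyrylamino and a methoxy group on its phenyl ring, dissolved in dimethyl sulfoxide (DMSO). The control group received an equal amount of DMSO alone. Both groups were sampled after 24 h and held 3 arrays, each from 1 pool of seedlings grown in 24 wells with 5 seeds per well. Values are log2 expression values made by robust multi-array averaging (RMA), with array medians of 5.75 to 5.79. The study is titled for auxin signalling and a form of cell death that depends on hydrogen peroxide, and its comparison of compound with DMSO is asked here of endodermal barrier genes.

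Both dirigent genes were lower with the compound than with DMSO, with no overlap between the groups and with the same direction within every replicate number. AT4G13580 was 3.92-fold lower and AT2G39430 was 1.74-fold lower. Other measured genes of Casparian strip, suberin and lignin formation and of lateral root emergence numbered 15. Their lists were chosen with earlier results of these data known. Of these 15, 0 passed limma's test without regard to replicate number. In that fit 4 had an unadjusted p below 0.05, as had 1220 of all 22746 probe sets. Of the 4, 3 were lower and 1 higher with the compound. When the replicate number was a block in the fit, 3 of the 15 fell, as did 1.97% of all probe sets. These 3 were AT5G66390, AT1G44970 and AT1G61590. Where the block was random, with an estimated correlation, 2 of them passed, and AT1G61590 did not (limma adjusted p = 0.0648). The members were chosen by their place in the barrier together with measured values, the log2 differences of this same contrast, in which AT4G13580 was already known as one of the genes with the widest falls. Their differences are therefore given as a description with no test.

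AT4G13580 had log2 values of 5.19, 5.62 and 5.28 on the compound arrays of replicate numbers 1, 2 and 3, against 7.25, 7.55 and 7.21 on the DMSO arrays of the same numbers. All compound arrays lay below all DMSO arrays, with a gap of 1.59 between the highest compound array and the lowest DMSO array. The means were 5.36 ± 0.22 with the compound and 7.34 ± 0.19 with DMSO (SD, n = 3 each), a log2 difference of -1.97 (moderated SE 0.15). Within replicate numbers 1, 2 and 3 the log2 difference was -2.06, -1.93 and -1.93. The SD of these 3 differences was 0.072, smaller than the SD within either group. Replicate number 2 was the highest of its group both with the compound and with DMSO. Ordered by log2 difference, the probe set stood in place 31 from the lowest of 22746.

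AT2G39430 had log2 values of 5.47, 5.45 and 5.07 on the compound arrays, against 6.13, 6.39 and 5.89 on the DMSO arrays, in the same order of replicate numbers. The groups did not overlap, and the gap between them was 0.42. The means were 5.33 ± 0.22 with the compound and 6.14 ± 0.25 with DMSO (SD, n = 3 each), a log2 difference of -0.80 (moderated SE 0.17). Within replicate numbers 1, 2 and 3 it was -0.66, -0.93 and -0.82, with an SD of 0.14. Here replicate number 3 was the lowest of its group with the compound and with DMSO. The probe set stood in place 176 from the lowest.

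**Figure D1:**
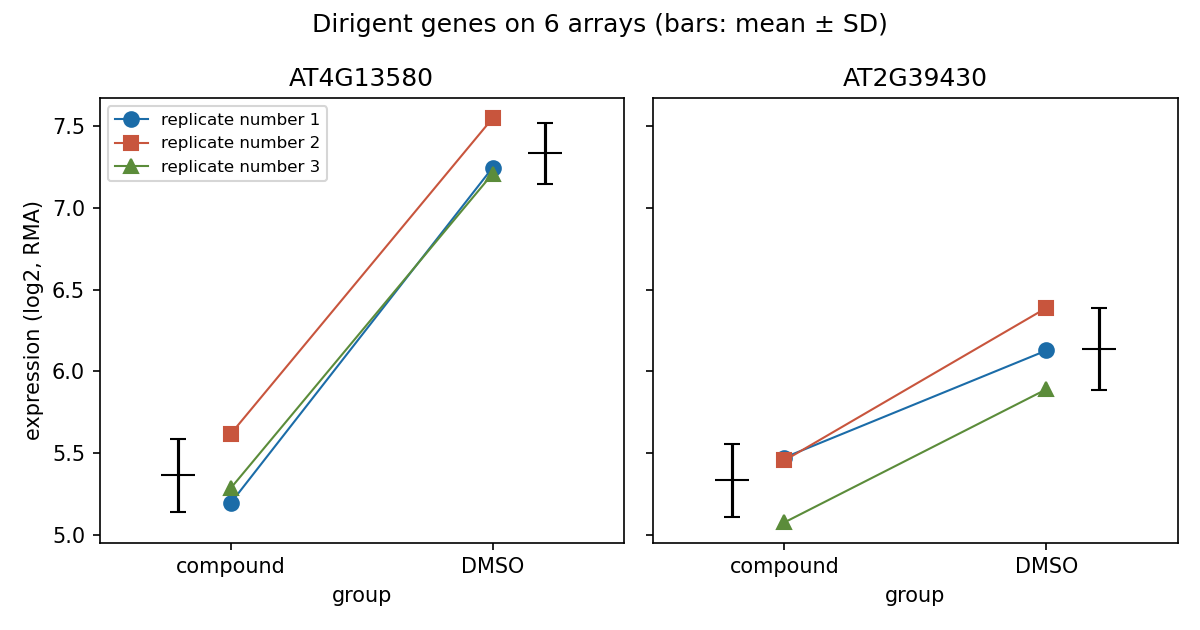
Log2 RMA expression (vertical axis) of AT4G13580 and AT2G39430 on the 3 compound and the 3 DMSO arrays, with a line joining arrays of the same replicate number and black bars for the mean ± SD of each group. All lines run from a lower compound value to a higher DMSO value, and the groups of AT4G13580 are separated by 1.59 and those of AT2G39430 by 0.42.

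The median log2 difference of both genes was -1.39, and that of all 22746 probe sets was 0.014, with quartiles of -0.069 and 0.098. Groups did not overlap, with the compound lower, for 2 of the 2 genes and for 4.37% of all probe sets. The compound array was lower within all 3 replicate numbers for 2 of the 2 genes and for 16.5% of all probe sets. In limma's fit of treatment alone, with Benjamini-Hochberg adjustment over all probe sets and a threshold of 0.05, 1 of the 2 genes, AT4G13580, was called lower, as were 0.224% of all probe sets. With the replicate number as a block both were called lower, as were 1.97% of all probe sets. These shares are the background of the counts, and since the genes were proposed from this contrast nothing is read from them. In the fits without compound replicate 1, 2 or 3 no probe set at all was called, and in the fit without DMSO replicate 3 just 1 was, so a call of AT4G13580 could hardly be had there. Its log2 difference stayed between -2.098 and -1.87 over all alternatives, and that of AT2G39430 between -0.92 and -0.67.

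The 2 genes differed from each other in size. The log2 difference of AT4G13580 minus that of AT2G39430 was -1.40, -0.9998 and -1.11 within replicate numbers 1, 2 and 3, and -1.17 for the group means. Over the 6 arrays the values of both genes correlated at a Pearson r of 0.93. The deviations from the group means, which leave out the difference between groups, correlated at 0.58. Both are descriptions over 6 arrays that are not independent, since arrays of the same replicate number deviated together.

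Dirigent genes form a family with many members outside the endodermis. The gene table used for names has no descriptions and names 3 further dirigent genes, DIR5, DIR6 and AT4G11180, none with a single-gene probe set. A list of 20 loci entered as dirigent family genes was therefore added after the data were seen. Of its 13 measured loci, 0 passed limma's test without the block. In that fit 2 had an unadjusted p below 0.05, as had 1220 of all 22746 probe sets. With the block 1 locus rose, as did 1.83% of all probe sets. With the block as random, 0 of the 13 passed. Their median log2 difference was 0.05, with 7 means higher and 6 lower with the compound, in a range of -0.48 to 1.03.

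The locus that rose with the block was AT3G13650. Its log2 values were 7.53, 9.02 and 7.48 with the compound and 6.25, 8.12 and 6.57 with DMSO. The groups overlapped, since replicate number 2 was the highest in both, but the compound array was higher within each number, by 1.28, 0.90 and 0.90. The log2 difference was 1.03 (SE 0.61, limma adjusted p = 0.999; with the block SE 0.099, adjusted p = 0.00316). Where the block was random its adjusted p was 0.175, so the call was not kept in limma with an estimated correlation. AT1G55210 and AT1G22900 were also at 5 or above in both groups, with log2 differences of 0.53 (SE 0.57) and 0.31 (SE 0.31). Neither passed in either fit, with or without replicate numbers, although the compound array was higher within all 3 numbers for both.

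The other 10 measured dirigent loci had means below 5 in both groups, and 4 of them were in both groups below the lower quartile of every array (3.95 to 4.06), a range in which signal and background cannot be told apart. Among the 10, AT4G11190 had the lowest log2 difference, -0.48 (SE 0.18, limma adjusted p = 0.783, and 0.182 with the block). Its compound values were 3.68, 3.49 and 3.69 and its DMSO values 3.90, 4.49 and 3.92, so that the groups did not overlap but DMSO replicate 2 stood well above the other arrays. AT1G58170, the other locus with an unadjusted p below 0.05, was higher with the compound within each number, also without overlap. The log2 difference of AT1G58170 was 0.28 (SE 0.092, limma adjusted p = 0.683, and 0.144 with the block). Some dirigent loci lie next to each other, such as AT3G13650, AT3G13660 and AT3G13662. Probes of near-identical copies can pick up each other's transcripts, which would make single values uncertain. How alike these loci are was not checked, as no sequences were used. Of these 3 neighbours, AT3G13660 and AT3G13662 had log2 differences of -0.055 and 0.20 and did not pass the test.

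**Figure D2:**
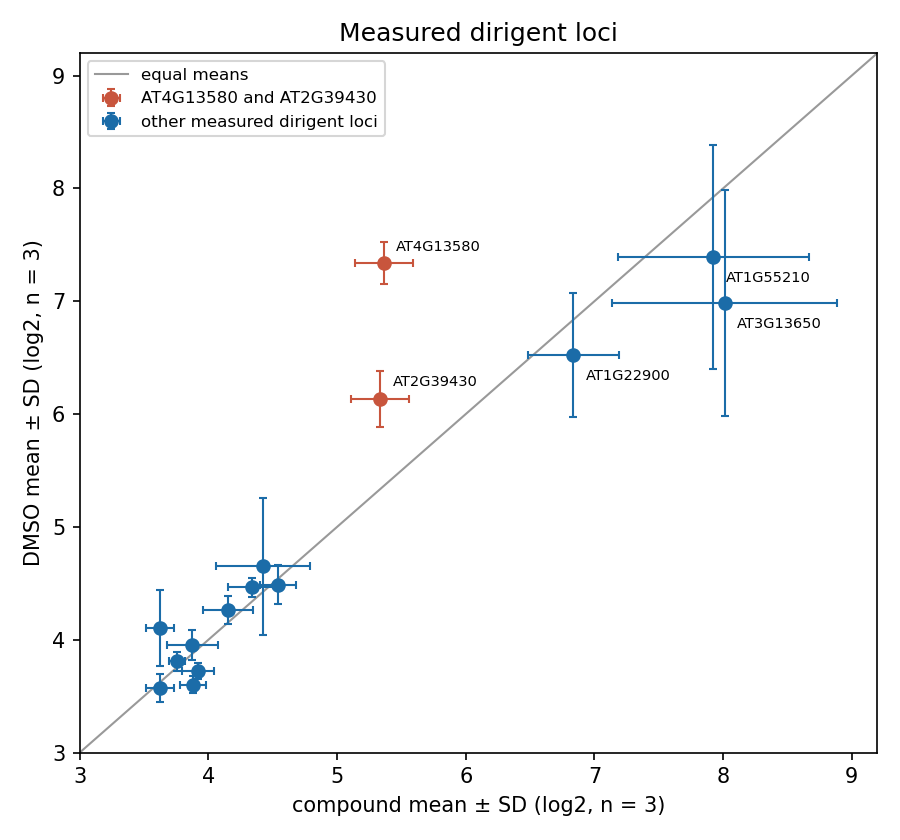
Mean log2 expression with the compound (horizontal axis) against DMSO (vertical axis) for the 2 dirigent genes of the set and the 13 other measured dirigent loci, with bars for the SD of 3 arrays and a line of equal means. AT4G13580 and AT2G39430 lie above the line, lower with the compound, AT3G13650 lies below it, and 10 loci lie in the corner under 5.

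The genes that build and signal the strip were read through 5 of 22 entered regulators and 4 of 12 entered wall oxidases and copper proteins. MYB36, the transcription factor that turns on CASP and dirigent genes of the endodermis, was not analysed here, nor were SHR and SCR, which specify the layer. They had no single-gene probe set in the annotation used. Of the 5 measured regulators none passed limma's test without the block, and their median log2 difference was -0.18. In that fit 1 had an unadjusted p below 0.05, as had 1220 of all 22746 probe sets. With the block 1 regulator fell, as did 1.97% of all probe sets. AT1G61590, entered as SGN1, a kinase of the pathway that surveys strip integrity, had values of 6.60, 6.05 and 7.10 with the compound and 7.14, 7.70 and 8.09 with DMSO. The groups barely parted, and the compound array was lower within each replicate number, with differences of -0.54, -1.64 and -0.99. Its log2 difference was -1.06 (SE 0.33, limma adjusted p = 0.599; 0.0288 with the block, 0.0648 where the block was random, and 0.0288 to 1.0 over all alternatives).

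GSO1, also known as SGN3, the receptor kinase of the same pathway, was at 5.55, 5.54 and 5.50 with the compound and 5.09, 6.18 and 5.85 with DMSO. The DMSO arrays lay on both sides of the compound arrays, and the log2 difference was -0.18 (SE 0.27, limma adjusted p = 0.999). AT4G34600, entered as CIF2, the precursor of a peptide that this receptor binds, was lower with the compound within each replicate number, with differences of -0.14, -0.33 and -0.23. Its log2 difference was -0.23 (SE 0.34, limma adjusted p = 0.999, and 0.203 with the block). JKD and SCL23, transcription factors that act with SHR and SCR, had log2 differences of -0.0084 (SE 0.18) and -0.049 (SE 0.19), and both were higher in replicate number 1 and lower in numbers 2 and 3.

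Of the 4 measured wall oxidases none passed without the block, and their median log2 difference was -0.70. In that fit 2 had an unadjusted p below 0.05, as had 1220 of all 22746 probe sets. With the block 2 oxidases fell, as did 1.97% of all probe sets. AT5G66390, for which the gene table holds the synonym PRX72, a class III peroxidase, had values of 6.49, 6.08 and 5.92 with the compound and 7.45, 7.92 and 7.42 with DMSO. The groups were clearly apart, at 6.16 ± 0.29 on average with the compound and 7.60 ± 0.28 on average with DMSO (SD, n = 3 each). Its log2 difference was -1.43 (SE 0.20, limma adjusted p = 0.0629, and 0.00486 with the block), a 2.70-fold lower level. It also passed without the block where probe sets with a mean under 4 or under 5 were left out (adjusted p = 0.0426 and 0.0410) and with both an intensity trend and robust estimation of the variance prior (adjusted p = 0.0349), and over all alternatives its adjusted p ran from 0.00486 to 0.260.

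AT1G44970, entered as the peroxidase PER9, had values of 3.85, 4.13 and 3.62 with the compound and 4.55, 5.45 and 4.55 with DMSO. With a compound mean of 3.87 it was under the lowest quartile bound of the arrays, so the fall may be larger than measured. The log2 difference was -0.98 (SE 0.27, limma adjusted p = 0.460; 0.0085 with the block, and up to 1.0 over all alternatives). AT4G11290, entered as PER39, was lower with the compound within each number, with differences of -0.25, -0.63 and -0.39, and did not pass (log2 difference -0.42, SE 0.32, limma adjusted p = 0.999, and 0.0643 with the block). The laccase gene LAC16 was at 3.59 in the compound group and 3.60 in the DMSO group, both below that quartile.

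Suberin, the second endodermal barrier, is a lipid polyester laid down around the whole cell after the strip. Of its 4 measured genes, out of 24 entered, 0 passed limma's test in either fit, 0 had an unadjusted p below 0.05, and the median log2 difference was -0.34. AT2G23540, entered as the suberin gene GELP51, had values of 7.70, 8.35 and 7.49 with the compound and 7.18, 9.53 and 7.78 with DMSO. DMSO replicate 2 was the highest and DMSO replicate 1 the lowest of the 6 arrays. All 4 genes shared this pattern within replicate numbers: higher with the compound in number 1, with differences of 0.22 to 0.51, and lower in number 2, at -1.31 to -1.098, and in number 3, at -0.29 to -0.16. AT4G13580 and AT2G39430 were lower in all 3 numbers. The difference between the suberin genes and the dirigent genes was not tested.

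HCT, which encodes an acyltransferase of monolignol synthesis, was the 1 measured gene of 18 entered for lignin. Its values were 9.19, 9.73 and 8.48 with the compound and 9.39, 10.0 and 8.64 with DMSO, with a log2 difference of -0.21 (SE 0.43, limma adjusted p = 0.999, and 0.218 with the block). Within replicate numbers HCT was lower with the compound in all 3, at -0.20, -0.28 and -0.17 (SD 0.057). AT5G14650, entered as the polygalacturonase PGLR of lateral root emergence, was the 1 measured gene of 10 and was at 3.74 ± 0.06 with the compound and 3.48 ± 0.16 with DMSO (SD, n = 3 each), both below the lower quartile of the arrays. It was higher with the compound within all 3 numbers and its groups did not overlap, with a log2 difference of 0.26 (SE 0.11, limma adjusted p = 0.918, and 0.169 with the block). The 4 entered genes of lignan formation and the 34 CASP-like genes of the gene table had no single-gene probe set in the annotation used.

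**Figure D3:**
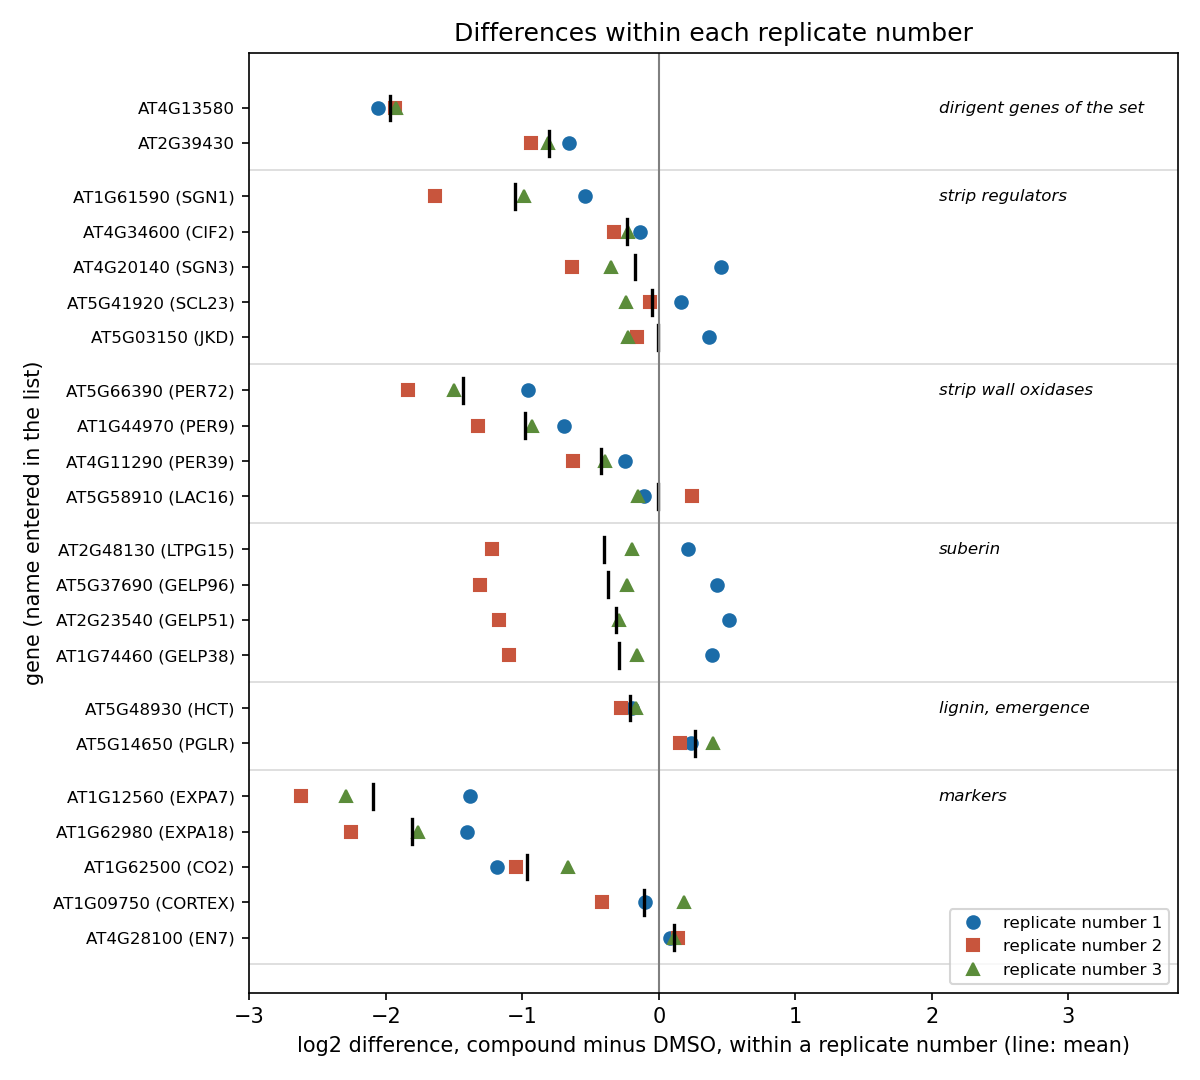
Log2 difference, compound minus DMSO (horizontal axis), within replicate numbers 1 (circles), 2 (squares) and 3 (triangles) for the 2 dirigent genes, the measured barrier genes and cell type markers, with a black line at the mean. AT4G13580 is at -2.06 to -1.93 in all 3 numbers, while the suberin genes are above 0 in number 1 and below -1 in number 2.

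Cell type markers were read beside these genes, since in RNA from whole seedlings fewer cells of a type and less RNA per cell cannot be told apart. Of 7 entered endodermis markers 2 were measured. AT4G28100, entered as the endodermal reporter gene EN7, was at 7.04, 7.17 and 6.66 with the compound and 6.95, 7.03 and 6.55 with DMSO. The groups overlapped, the log2 difference was 0.11 (SE 0.18, limma adjusted p = 0.999, and 0.54 with the block), and within replicate numbers it was 0.085, 0.14 and 0.11. The second marker was AT1G61590, described above. The log2 of the summed level of both lay between 7.71 and 7.90 with the compound and between 8.05 and 8.52 with DMSO. This gap came from AT1G61590, since AT4G28100 was slightly higher with the compound within each number. As AT1G61590 is also among the barrier genes that fell with the block, the sum is no separate reading of the endodermis.

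Some markers of other root cells moved with the treatment. Both measured root hair markers of 12 entered fell in the fit without the block, as did 0.224% of all probe sets. EXPA7 had a log2 difference of -2.098 (SE 0.26, limma adjusted p = 0.0420) and EXPA18 one of -1.81 (SE 0.20, limma adjusted p = 0.0266). Over all alternatives limma's adjusted p reached 0.225 for EXPA7 and 0.152 for EXPA18. The log2 of their summed level was 6.39 to 6.51 with the compound and 7.91 to 8.84 with DMSO. Of the 2 measured cortex markers of 3 entered, AT1G62500, entered as CO2, was at -0.97 (SE 0.23, limma adjusted p = 0.317, and 0.00614 with the block), and AT1G09750 was at -0.11 (SE 0.23, limma adjusted p = 0.999). The summed cortex level overlapped between the groups, at 9.07 to 9.74 with the compound and 9.57 to 9.94 with DMSO. Of 4 measured lateral root primordium markers of 6 entered, 3 rose in the fit without the block, as did 27 of all 22746 probe sets. Among them, LBD29 had a log2 difference of 1.94 (SE 0.17, limma adjusted p = 0.0173) and LBD16 one of 1.61 (SE 0.098, limma adjusted p = 0.0147). For these genes limma's adjusted p reached 0.103 and 0.094 over all alternatives. The summed level of the 4 markers was 8.27 to 8.37 with the compound and 6.82 to 6.96 with DMSO. None of the entered markers of hairless epidermis, stele, root cap and leaf mesophyll had a single-gene probe set in the annotation used. The shoot part of the seedlings was thus not checked. The part of these shifts in the lower levels of the dirigent genes was not tested.

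Genes with a pattern like that of AT4G13580 were looked for among 1695 genes with a mean of at least 5 and an SD of at least 0.3 over the 6 arrays. The 5 with the highest Pearson r over the 6 arrays were AT3G57320 (r = 0.998), AT1G30750 (r = 0.990), AT1G34510 (r = 0.985), AT2G45750 (r = 0.983) and AT5G65530 (r = 0.981). All 5 were lower with the compound, which the ranking all but required, since r over these arrays mostly follows the gap between the groups. AT1G34510 and AT5G65530 had compound means below 5 and met the filter on the mean only through their DMSO arrays. AT1G34510 was at 4.28 ± 0.23 with the compound and 7.64 ± 0.53 with DMSO (SD, n = 3 each), a log2 difference of -3.36. AT1G30750 had a log2 difference of -1.77, AT5G65530 one of -1.26, and AT2G45750 one of -0.98. AT3G57320, the most alike, had a difference of -0.57, less than that of AT4G13580, since r takes no account of size.

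For AT2G39430 the 5 most alike were AT3G22620 (r = 0.996), ACT11 (r = 0.987), AT5G38020 (r = 0.985), AT2G16005 (r = 0.973) and AT1G14120 (r = 0.973). None of these was among the 5 of AT4G13580. ACT11, an actin gene, was at 5.61 ± 0.16 with the compound and 6.39 ± 0.27 with DMSO (SD, n = 3 each). AT2G16005 had a log2 difference of -1.67 and AT1G14120 one of -1.21. AT5G38020 and AT2G16005, with compound means of 4.90 and 4.9995, met the filter on the mean only through their DMSO arrays. Likeness over 6 arrays in 2 groups is set mostly by the difference between the groups and is given as a description.

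When only the deviations from the group means were compared, the genes most like AT4G13580 were others: AT5G51830 (r = 0.998), AT5G06730 (r = 0.997), ECS1 (r = 0.997), AT4G12500 (r = 0.996) and Prx37 (r = 0.994). These share with AT4G13580 the high values of replicate number 2 in both groups, but none was lower with the compound. Their log2 differences were 0.33, 0.55, 0.041, 1.12 and 0.88 in that order. For AT2G39430 the first was AT1G23330 (r = 0.993, log2 difference -0.23), and AT3G22620 was among the 5 by both measures (r = 0.988 over the deviations).

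The measured genes nearest to the 2 dirigent genes on their chromosomes are given for comparison. TRM18 lies directly beside AT2G39430 and was at 3.78 with the compound and 3.82 with DMSO, below the lower quartile of the arrays. On the other side AT2G39420, with 1 gene between, had a log2 difference of -0.024 (SE 0.18, limma adjusted p = 0.999). AT4G13550 and AT4G13600, the nearest measured genes around AT4G13580, lie 13 and 3 genes away from it, counting the genes between, and had log2 differences of -0.059 (SE 0.13) and 0.35 (SE 0.13), with limma adjusted p of 0.999 and 0.824.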

How the data were processed

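The authors deposited log2 expression values per probe set, made with RMA per the submitters' processing notes; software and version are not given in the sources used here. Per the labels' protocols, 100 ng of RNA was labelled by in vitro transcription. RMA brings the arrays to a common distribution, and the deposited medians were nearly equal, so any change common to all transcripts is hidden. No detection calls were used, and the number of arrays limits the precision. Of 22810 probe sets, 64 controls were left out. Of the other 22746, 13513 (59.4%) had 1 gene in the platform annotation, updated through the NCBI table of assembly TAIR10.1, 503 had several and 8730 were unnamed here. Positions in that table served only for the order of genes on a chromosome, and no sequences were used. Each gene was read from its single-gene probe set with the highest mean, and each of the 28 named genes had just 1.

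The fit used limma (version 3.58.1, under R 4.3.3) with lmFit and eBayes and no term but treatment, adjusted by Benjamini-Hochberg over 22746 probe sets. It was first run on simulated data with independent noise for each array and larger shifts than most seen here. That run therefore does not bear on deviations shared within a replicate number or on smaller differences. Differences are compound minus DMSO, with the moderated SE. The deviations from the group means of arrays with the same replicate number correlated at 0.727, 0.728 and 0.743, so the numbers in the titles were taken to pair the samples. Other pairs were at -0.426 to -0.275, which largely follows from the first values, since deviations within a group cancel out. The fit of treatment alone leaves this pairing out. Its median SE over all probe sets was 0.125 with 4 residual degrees of freedom, against 0.084 with 2 for the block. A gene that did not pass in it is therefore not shown to be unchanged. The labels call the samples biological replicates and do not say what arrays of 1 number share.

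The members and lists were chosen with earlier results of these data known. Named were the members, the 2 genes of each list with the smallest p, SGN3, the 2 markers per cell type with the highest mean and the 5 genes most alike. The part of the rule that used a CASP mean could not be applied, and AT2G39430 took its place. That choice, the dirigent list, the likeness over deviations, the chromosomal neighbours and further list members named for their lists were added after the values were seen. Alternatives were the replicate number as a fixed or random block, filters on dim probe sets, arrays centred on their median or quantile normalized again, an intensity trend together with robust estimation in the variance prior, and each array left out.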

Additional observations from a re-analysis of the deposited data

How the results depend on the processing

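The replicate number as a block raised the probe sets called from 78 to 865. It raised the other barrier genes called from 0 to 3 of 15 and the added dirigent loci called from 0 to 1 of 13. As a random block these counts were 491, 2 and 0. Without 1 array the count of all probe sets called ran from 0 to 76. The count was 0 without compound replicate 1, 2 or 3, where limma's unadjusted p was under 0.05 for 1022, 1049 and 1047. It was 1 without DMSO replicate 3, where 1000 had such a p, and 40 without DMSO replicate 2. Such fits have 1 residual degree of freedom fewer. Of the barrier genes, 1 was called with a mean of at least 4, 1 with a mean of at least 5 and 1 with the intensity trend and robust estimation together. The median difference of the dirigent genes ran from -1.48 to -1.27 without 1 array. Without 1 array, in fits that break a pair, the sign was not fixed for AT4G34600 (-0.49 to 0.080), AT5G37690 (-0.76 to 0.34), AT5G48930 (-0.56 to 0.12), AT4G20140 (-0.49 to 0.061), AT4G28100 (-0.034 to 0.26) and AT1G09750 (-0.24 to 0.14), none of which passed the test in any setting. Of 335 values of the 26 named genes other than the 2 dirigent genes under alternatives, 22 moved past the threshold and 38 no longer passed it. Low values, such as those of most dirigent loci, are close to background, which limits what differences can be seen.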
